A study of Arabidopsis thaliana with 12 samples.

Results

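The comparison described here sets the 3 arrays of cnu1 seedlings against the 3 arrays of PMEIox seedlings, 6 of the 12 arrays of the series, chosen by their sample titles, over all 27827 loci of the deposited table. RNA came from Arabidopsis thaliana seedlings plated without sugar, held in the cold for 48 h, given white light of 100 µmol per square metre and second for 6 h and then grown at 22 °C in darkness for 4 days. The series has 3 further arrays each of cnu2 and of Col-0, the wild type, which are used below for values side by side. The design text calls the arrays A, B and C of a genotype biological replicates harvested in successive weeks.

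Each of the 2 compared genotypes carries the same transgene in the Col-0 background. PMEIox overexpresses the pectin methylesterase inhibitor gene PMEI5 (AT2G31430), and cnu1 is a suppressor mutant isolated from PMEIox. From published knowledge of this line, not from the labels, cnu1 has a mutation in BRI1 (AT4G39400), the receptor kinase for brassinosteroid hormones at the cell surface, and cnu2, likewise isolated from PMEIox, is mutated in the receptor-like protein gene RLP44 (AT3G49750). One cnu1 line was measured, with no other allele beside it, and the promoter of the transgene is not given in the sources used here. The comparison therefore sets the transcripts of a line with a mutation in the hormone receptor beside those of its parent. Other changes the line may carry cannot be told apart from that mutation, and the arrays do not measure wall pectin.

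Brassinosteroids are steroid hormones that promote cell elongation in dark-grown seedlings. Binding of the hormone by BRI1 inactivates the kinase BIN2 and lets the transcription factors BZR1 and BES1 act. These factors induce many growth genes and repress the hormone's own synthesis genes, which forms a feedback loop. Pectin methylesterases remove methyl groups from wall pectin, and their inhibitors oppose this.

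The targeted genes were examined first. PMEI5 was at 12.62, 12.69 and 12.62 on the log2 scale in cnu1 and at 12.69, 12.64 and 12.64 in PMEIox, against 8.19, 5.05 and 4.49 in Col-0, where array A stood apart. The cnu1 and PMEIox values overlapped, so the transgene transcript was present at a similar level in both (difference -0.02 ± 0.67, SE, limma adjusted p = 0.994). The SE pools the spread of all genotypes, and the SD was 0.04 in cnu1, 0.03 in PMEIox and 1.99 in Col-0. BRI1 was at 7.73, 7.75 and 7.94 in cnu1 and at 7.52, 7.52 and 7.35 in PMEIox. The groups did not overlap, which was so at 25.9% of all loci, 13.1% higher in cnu1 and 12.9% lower. A lack of overlap alone is thus common in this comparison. The BRI1 difference of 0.34 ± 0.09 (SE) missed the threshold of the test (limma adjusted p = 0.0524). The BRI1 difference passed with trend and robust settings (adjusted p = 0.0182) and when the lowest 40% of loci were dropped (adjusted p = 0.0197). Under the other alternatives its adjusted p ran from 0.0519 to 0.186. A BRI1 transcript level does not test for a change in the protein, so it does not check the cnu1 label. RLP44 was at 2.65, 3.28 and 3.24 in cnu1 and at 2.78, 2.66 and 2.73 in PMEIox, near background in both (limma adjusted p = 0.397). Near background means a group mean below 3.87, the 75th percentile of the levels of 14 pollen and anther genes in these seedlings.

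Arrays correlated across genes, which are not independent replicates, at 0.992 to 0.993 within cnu1, at 0.992 to 0.993 within PMEIox and at 0.983 to 0.987 between them. The deposited values ran from 0.785 to 13.9 with a median of 5.47, and the number of arrays limits the precision, with a median SE of a difference of 0.137. In limma's test across all loci, 986 loci were higher in cnu1 than in PMEIox and 806 were lower at an adjusted p under 0.05, 3.54% and 2.90% of those tested, or 6.44% in all. The median difference over all loci was -0.00195. Most called differences were below 2-fold, and 1.40% of all loci were called with at least a 2-fold difference. Of the higher loci, 233 differed by under 0.5 on the log2 scale, 535 by 0.5 to 1, 192 by 1 to 2 and 26 by more than 2, and of the lower loci 170, 465, 134 and 37. Without cnu1 C 1061 loci were called, without PMEIox A 1104 and without PMEIox C 1130. RNA came from seedlings without separation of tissues, so fewer cells of a type and less RNA per cell cannot be told apart in any result below.

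Brassinosteroid synthesis genes were higher in cnu1. Of 10 measured enzymes 6 rose and 0 fell, with a median difference of 0.88, where 3.54% of all loci rose. DWF4 (AT3G50660), the rate-limiting hydroxylase of the pathway, was at 8.48, 8.38 and 8.60 in cnu1 and at 6.36, 6.91 and 6.51 in PMEIox. The lowest cnu1 array lay well above the highest PMEIox array, and the level rose 3.71-fold (log2 1.89 ± 0.14, SE, limma adjusted p = 7.99e-06). CPD (AT5G05690), a cytochrome P450 of an early step, was at 9.55, 9.61 and 9.38 in cnu1 and at 8.07, 8.16 and 8.33 in PMEIox. It rose 2.50-fold without overlap (log2 1.32 ± 0.10, SE, limma adjusted p = 8.29e-06).

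The last oxidation steps and the side chain hydroxylases moved in the same direction. BR6OX2 (AT3G30180), the oxidase that completes the active hormone, was at 7.38, 7.35 and 7.53 in cnu1 and at 5.67, 6.21 and 5.76 in PMEIox (log2 1.54 ± 0.14, SE, limma adjusted p = 4.30e-05). CYP90D1 (AT3G13730), a side chain hydroxylase, was at 6.45, 6.54 and 6.60 in cnu1 and at 5.45, 5.43 and 5.26 in PMEIox (log2 1.15 ± 0.11, SE, limma adjusted p = 5.05e-05). Neither gene overlapped between the groups. The paralogs BR6OX1 (AT5G38970) and ROT3 (AT4G36380), named after their values were seen, completed the 6. BR6OX1 was at 5.79, 5.93 and 6.22 in cnu1 and at 4.72, 4.89 and 4.39 in PMEIox, a rise of 1.32 ± 0.14 (SE, limma adjusted p = 0.000154). ROT3 rose by 0.61 ± 0.14 (SE, limma adjusted p = 0.0193), with a lowest cnu1 value of 9.29 and a highest PMEIox value of 9.04, and its call ended without cnu1 C, PMEIox A or PMEIox C (adjusted p up to 0.0818). The 4 enzymes not called were DET2, a steroid reductase, at 0.01, and DWF1, DWF5 and STE1, which also make bulk sterols, at 0.07, -0.16 and 0.11.

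**Figure D1:**
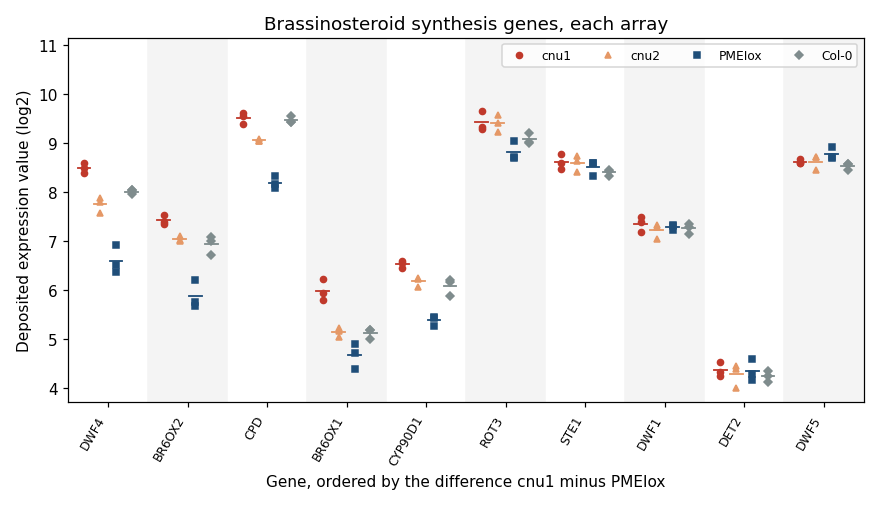
Deposited log2 expression values (vertical axis) of the 10 brassinosteroid synthesis genes (horizontal axis) on each array of cnu1, cnu2, PMEIox and Col-0, with points for arrays and short lines for group means of 3. In the 6 genes at the left every cnu1 array lies above every PMEIox array, and in the 4 at the right no difference passed the test.

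The plot of the synthesis genes by array also places cnu1 beside the other genotypes. For DWF4 the cnu1 mean of 8.48 stood beside 7.74 in cnu2, 6.59 in PMEIox and 8.0 in Col-0. The differences of cnu2 from PMEIox were 1.15 for DWF4, 0.86 for CPD, 1.15 for BR6OX2 and 0.80 for CYP90D1, each called (limma adjusted p from 0.000604 to 0.00179), where 3.25% of all loci were called, 1.78% higher and 1.48% lower, and these comparisons share the PMEIox arrays with that of cnu1. Tested directly, cnu1 was above cnu2 for DWF4 by 0.74 ± 0.14 (SE, limma adjusted p = 0.0366) and for BR6OX1 by 0.84 ± 0.14 (SE, limma adjusted p = 0.0235), where 0.568% of all loci were called and 0.377% were higher in cnu1 than in cnu2. The DWF4 call between these mutants ended in all 6 omissions of an array (adjusted p up to 0.144) and the BR6OX1 call in 5, without cnu1 B, cnu1 C, cnu2 A, cnu2 B or cnu2 C (adjusted p up to 0.103). Against Col-0, BR6OX1 alone among the 10 was higher in cnu1, by 0.86 ± 0.14 (SE, limma adjusted p = 0.0211, 0.359% of all loci higher). That call ended without cnu1 B, cnu1 C, Col-0 A or Col-0 B (adjusted p up to 0.109).

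Enzymes that inactivate the hormone moved both ways, with 1 rise and 2 falls among 7 and a median of -0.48. Over all loci 3.54% rose and 2.90% fell. BAS1 (AT2G26710), a hydroxylase that inactivates brassinosteroids, was at 8.74, 8.75 and 9.07 in cnu1 and at 9.81, 9.82 and 9.75 in PMEIox. The groups were apart, and BAS1 fell by 0.94 ± 0.11 (SE, limma adjusted p = 0.000293). BEN1 (AT2G45400), a reductase-like gene, fell by 0.54 and BAT1 (AT4G31910), an acyltransferase gene, rose by 0.47 (limma adjusted p = 0.0255 and 0.0278). Neither call held in every omission of an array. BEN1 lost its call without any cnu1 array, PMEIox B or PMEIox C, and BAT1 without cnu1 C or any PMEIox array, so that 1 member remained called without cnu1 C, PMEIox B or PMEIox C. The glucosyltransferase gene UGT73C5 (AT2G36800), named after its values were seen, was at 5.79, 5.05 and 4.46 in cnu1 and at 6.15, 6.43 and 6.62 in PMEIox. Its groups did not overlap, as at 12.9% of all loci in this direction, but the spread within cnu1 was wide. UGT73C5 was not called (-1.30 ± 0.38, SE, limma adjusted p = 0.0653).

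Among 25 genes of perception and signalling, 4 rose and 0 fell, with a median of 0.14, and 7 rose with trend and robust settings. The share of all loci that rose in the main test was 3.54%. BEH2 (AT4G36780), a homolog of BZR1, was at 10.62, 10.67 and 10.39 in cnu1 and at 9.40, 9.46 and 9.61 in PMEIox (log2 1.07 ± 0.10, SE, limma adjusted p = 5.27e-05). BEH1 (AT3G50750), another homolog, was at 6.91, 7.15 and 6.83 in cnu1 and at 5.87, 5.70 and 5.79 in PMEIox (log2 1.18 ± 0.14, SE, limma adjusted p = 0.000272). For both genes all cnu1 arrays were above all PMEIox arrays. The BRI1-like receptor genes BRL2 (AT2G01950) and BRL1 (AT1G55610) rose by 0.49 and 0.64 (limma adjusted p = 0.0139 and 0.0361). BRL2 lost its call without cnu1 B, PMEIox B or PMEIox C and BRL1 without any cnu1 array, PMEIox B or PMEIox C, and 2 members were called without cnu1 B, PMEIox B or PMEIox C. The core components BZR1 (0.14), BES1 (-0.08), BIN2 (0.00) and the co-receptor BAK1 (0.17) were not called (limma adjusted p from 0.388 to 0.988).

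Genes known to be induced by brassinosteroids did not move together, with 2 rises and 5 falls among 19 and a median of -0.06. The shares of all loci were 3.54% for rises and 2.90% for falls. PRE1 (AT5G39860), a helix-loop-helix gene that promotes elongation, was at 8.04, 7.76 and 8.04 in cnu1 and at 5.81, 5.99 and 5.68 in PMEIox. PRE1 rose 4.34-fold (log2 2.12 ± 0.17, SE, limma adjusted p = 1.36e-05). TCH4 (AT5G57560), a xyloglucan-modifying enzyme gene, was at 4.66, 4.72 and 4.94 in cnu1 and at 5.93, 5.53 and 5.79 in PMEIox (log2 -0.97 ± 0.15, SE, limma adjusted p = 0.00167). ACS5 (AT5G65800), an ethylene synthesis gene, was at 7.73, 7.84 and 8.22 in cnu1 and at 8.86, 9.04 and 8.96 in PMEIox (log2 -1.02 ± 0.14, SE, limma adjusted p = 0.00103). Neither of these overlapped between the groups. EXL2 (AT5G64260) rose by 0.40 (limma adjusted p = 0.0101). The other 3 falls were those of the helix-loop-helix genes BEE1, BEE3 and PRE6, named after their values were seen, at -0.66, -0.71 and -0.31, of which PRE6 lost its call in all 6 omissions of an array, BEE3 in 5 (all but that of cnu1 B) and BEE1 without cnu1 A.

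Of 17 genes that respond to sulfur shortage 15 rose and 0 fell, with a median of 0.88, where 3.54% of all loci rose. These genes take up, reduce and recycle sulfur when supply falls short. Their share of called members was the highest of the 40 lists examined. The lists were chosen with earlier results of these data known, so this rank is a description and not a test. BGLU28 (AT2G44460), a glucosidase gene used as a marker of sulfur shortage, was at 6.50, 6.54 and 6.75 in cnu1 and at 4.04, 3.90 and 4.24 in PMEIox. It rose 5.81-fold (log2 2.54 ± 0.19, SE, limma adjusted p = 8.01e-06). APR1 (AT4G04610), which encodes the sulfate-reducing enzyme of sulfur assimilation, was at 6.39, 6.52 and 6.41 in cnu1 and at 4.79, 5.06 and 4.72 in PMEIox. It rose 2.99-fold (log2 1.58 ± 0.15, SE, limma adjusted p = 4.21e-05), and the paralogs APR2 and APR3, named after their values were seen, rose by 0.76 and 1.45, APR2 losing its call without cnu1 A, cnu1 C, PMEIox A or PMEIox B.

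Sulfate transporters of uptake and of the vacuole were among the called genes. SULTR1;2 (AT1G78000), the main uptake transporter of roots, was at 9.87, 9.83 and 9.97 in cnu1 and at 8.78, 8.98 and 8.78 in PMEIox (log2 1.04 ± 0.11, SE, limma adjusted p = 0.000157). SULTR4;1 (AT5G13550), which releases sulfate from the vacuole, was at 7.59, 7.47 and 7.53 in cnu1 and at 6.54, 6.59 and 6.72 in PMEIox (log2 0.92 ± 0.09, SE, limma adjusted p = 6.78e-05). The groups did not overlap in either gene. SULTR4;2 rose by 0.88 and SULTR1;1 by 0.65, the second losing its call without cnu1 A, cnu1 C, PMEIox A or PMEIox C, and SULTR2;1, which acts in transport between organs, was not called at -0.33 (limma adjusted p = 0.123). These 3 transporters were named after their values were seen.

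The sulfur genes also set cnu1 apart from the other genotypes, as the plot of these genes by array shows. SDI1 (AT5G48850), a sulfur deficiency-induced gene named after its values were seen, was at 6.19, 6.14 and 6.20 in cnu1 and at 4.20, 3.91 and 3.64 in PMEIox, with means of 3.94 in cnu2 and 3.64 in Col-0. Each of the 3 cnu1 arrays lay above every array of the other genotypes. SDI1 was higher in cnu1 than in PMEIox by 2.26 ± 0.26, than in cnu2 by 2.23 ± 0.26 and than in Col-0, where it was near background, by at least 2.54 ± 0.26 (SE, limma adjusted p = 0.000248, 0.00338 and 0.00152). BGLU28 had means of 4.01 in cnu2 and 5.06 in Col-0, and cnu1 was above them by 2.59 ± 0.19 and 1.54 ± 0.19 (SE, limma adjusted p = 0.000236 and 0.00391). LSU1 (AT3G49580), a sulfur shortage gene also named after its values were seen, was at 4.07, 3.3 and 3.64 in cnu1 and at 2.15, 1.96 and 2.33 in PMEIox, and its group means were near background in both. The calls of SDI1, BGLU28 and LSU1 held in every omission of an array against PMEIox, cnu2 and Col-0.

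**Figure D2:**
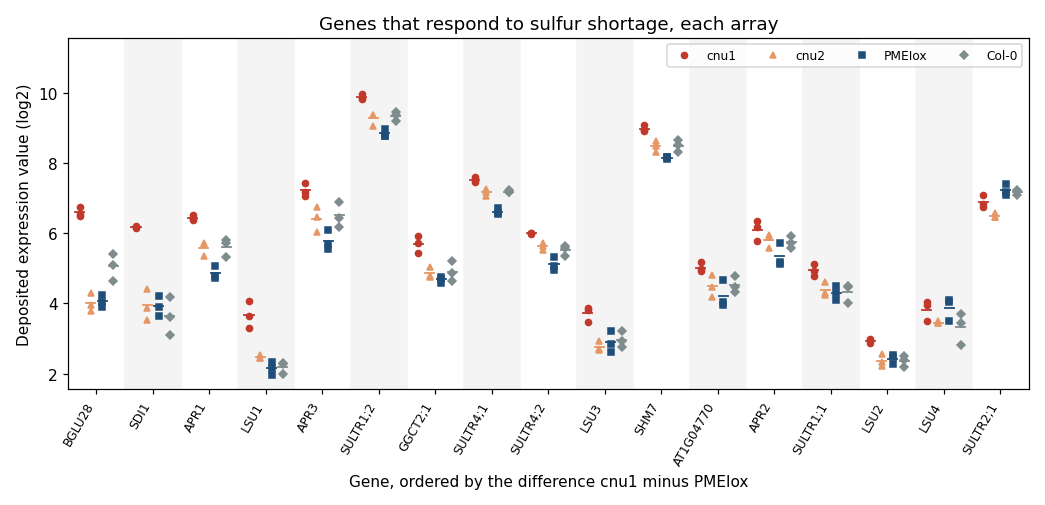
Deposited log2 expression values (vertical axis) of the 17 sulfur shortage genes (horizontal axis) on each array of cnu1, cnu2, PMEIox and Col-0, with points for arrays and short lines for group means of 3. In BGLU28, SDI1 and LSU1 the cnu1 arrays stand above all 9 other arrays, and LSU4 and SULTR2;1 at the right are the 2 members not called between cnu1 and PMEIox.

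In all, 7 of the 17 sulfur genes were called higher in cnu1 than in cnu2 and 5 than in Col-0, where 0.377% and 0.359% of all loci were higher. Besides the 3 genes above, these were APR1 and GGCT2;1 (AT5G26220), a glutathione-degrading enzyme gene, in both, and SULTR1;2 and LSU3 against cnu2. Each of these further calls ended in 4 to 6 of the 6 omissions of an array, those of cnu1 A and cnu1 C always among them (adjusted p up to 0.168). Against PMEIox, cnu2 had 3 rises and 1 fall in the list and a median of 0.27, beside the 15 rises and median of 0.88 of cnu1, and the 2 comparisons share the PMEIox arrays. Without the lowest 40% of loci, 10 of the 17 genes were still tested and 9 were called. Leaving out 1 array left 10 to 14 called. Glucosinolate genes, which draw on the same sulfur supply, gave 1 rise and 1 fall among 30 with a median of -0.07. Without the lowest 40% of loci 2 rose and 3 fell, and with trend and robust settings 2 and 2. The 1 rise and 1 fall among 30 were near the shares of all loci, 3.54% higher and 2.90% lower. The rise was that of MYB34 (AT5G60890), a regulator of indolic glucosinolates, at 1.5 ± 0.17 (SE, limma adjusted p = 0.000177), and the fall that of TGG2 (AT5G25980), a myrosinase gene, at -2.31 ± 0.15 (SE, limma adjusted p = 3.46e-06).

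Transcripts of xylem and secondary walls were higher in cnu1, with 15 rises and 0 falls among 26 and a median of 0.89. Over all loci 3.54% rose. COBL4 (AT5G15630), which acts in the ordering of secondary wall cellulose, was at 8.0, 7.76 and 8.13 in cnu1 and at 6.34, 6.43 and 6.37 in PMEIox. It rose 3.00-fold with groups far apart (log2 1.58 ± 0.13, SE, limma adjusted p = 1.87e-05). MYB46 (AT5G12870), a master regulator of secondary wall genes, was at 6.70, 6.41 and 6.72 in cnu1 and at 5.56, 5.48 and 5.65 in PMEIox (log2 1.05 ± 0.12, SE, limma adjusted p = 0.000269). CTL2 (AT3G16920), a chitinase-like gene, was at 9.51, 9.39 and 9.66 in cnu1 and at 7.94, 8.11 and 7.36 in PMEIox (log2 1.71 ± 0.22, SE, limma adjusted p = 0.000482). All cnu1 arrays were above all PMEIox arrays in both. GAUT12 (AT5G54690), a gene of xylan synthesis, rose by 0.82 ± 0.11 (SE, limma adjusted p = 0.000553).

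The members of the secondary wall cellulose synthase complex, named after their values were seen, rose by nearly equal amounts, CESA4 by 0.96, CESA7 by 1.0 and CESA8 by 0.96. The xylem protease gene XCP1 rose by 1.12 and IRX9, of xylan synthesis, by 1.11, both also named after their values were seen. The 11 members not called included the regulators VND6 (0.45), VND7 (0.20), SND1 (-0.08), NST1 (0.03) and MYB83 (0.40), with limma adjusted p from 0.0587 to 0.960. Against PMEIox, cnu2 had 6 rises in this list and a median of 0.44, beside the 15 rises and median of 0.89 of cnu1.

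Lignin genes were higher than in PMEIox too, with 13 rises and 0 falls among 21 monolignol and laccase genes and a median of 0.49. Of all loci 3.54% rose. LAC2 (AT2G29130), a laccase gene, was at 8.86, 8.63 and 8.91 in cnu1 and at 5.90, 6.53 and 6.37 in PMEIox, a 5.78-fold rise (log2 2.53 ± 0.19, SE, limma adjusted p = 8.70e-06). LAC17 (AT5G60020), which polymerises lignin in stems, had a lowest value of 9.83 in cnu1 and a highest of 8.28 in PMEIox (log2 1.80 ± 0.19, SE, limma adjusted p = 0.000137). The other laccase genes of the list, LAC4 and LAC11, named after their values were seen, rose by 1.38 and 1.39. At the entry of the pathway PAL4 (AT3G10340), a phenylalanine ammonia-lyase gene, was at 7.42, 7.67 and 7.59 in cnu1 and at 5.83, 6.09 and 5.87 in PMEIox (log2 1.62 ± 0.15, SE, limma adjusted p = 4.11e-05), and 4CL1 (AT1G51680), a coenzyme A ligase gene, rose by 0.92 ± 0.10 (SE, limma adjusted p = 0.000194). Enzymes of the middle and end of the pathway were divided. HCT, CYP98A3, CAD4 and CAD5, named after their values were seen, rose by 0.49, 0.40, 0.44 and 0.59 (limma adjusted p from 0.00231 to 0.0296), and C4H (0.26), CCR1 (0.10), FAH1 (0.06) and COMT1 (-0.31) were not called (limma adjusted p from 0.0624 to 0.885). CYP98A3 lost its call in every omission of an array but that of PMEIox C, and CAD4 in every one but that of cnu1 A. The mean level of the xylem list ran from 6.02 to 6.22 over the cnu1 arrays and from 5.35 to 5.48 over the PMEIox arrays, and the part of the number of xylem cells in these values was not tested. Of 8 genes of the endodermal barrier, CASP5 was called (0.49, limma adjusted p = 0.0474), and its call ended in all 6 omissions of an array.

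Seed reserve transcripts, which are made in the embryo and normally decline after germination, were lower in cnu1. Of 13 seed storage protein genes 0 rose and 10 fell (median -2.38), where 2.90% of all loci fell. SESA3 (AT4G27160), a storage albumin gene, was at 6.14, 6.17 and 5.76 in cnu1 and at 9.86, 10.05 and 9.72 in PMEIox (log2 -3.86 ± 0.19, SE, limma adjusted p = 8.27e-07). Its neighbours SESA1, SESA2 and SESA4, next to one another in the gene table, fell as well, by 3.26 for SESA1, 2.38 for SESA2 and 1.96 for SESA4, and SESA1 was near background in cnu1, so its difference is a lower bound. SESA5 (AT5G54740) was at 5.48, 4.98 and 5.01 in cnu1 and at 8.16, 8.43 and 8.72 in PMEIox (log2 -3.28 ± 0.20, SE, limma adjusted p = 3.07e-06). PAP85 (AT3G22640), a vicilin-like gene, fell by 2.60 ± 0.18 (SE, limma adjusted p = 5.78e-06).

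Storage transcripts also varied within cnu1. CRU3 (AT4G28520), a cruciferin gene, was at 8.20, 6.84 and 8.35 in cnu1 and at 10.35, 10.64 and 10.71 in PMEIox, a fall of 2.77 ± 0.42 on the log2 scale (SE, limma adjusted p = 0.0017). CRA1 (AT5G44120), another cruciferin gene named after its values were seen, was at 8.77, 6.77 and 9.78 in cnu1 and at 10.43, 10.62 and 10.87 in PMEIox. In both genes cnu1 B was the lowest array, and CRA1 was not called despite a difference of -2.20 ± 0.70 (SE, limma adjusted p = 0.0888). CRU3 varied within cnu2 as well, with an SD of 0.87 beside 0.83 in cnu1, 0.19 in PMEIox and 0.23 in Col-0. SESA3 varied less over cnu1, from 5.76 to 6.17.

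Other seed genes were lower too. Of 22 late embryo and oil body genes 0 rose and 14 fell (median -1.19), where 2.90% of all loci fell. LEA (AT2G21490), a dehydrin gene, was at 5.30, 5.19 and 5.17 in cnu1 and at 7.59, 7.83 and 8.05 in PMEIox (log2 -2.60 ± 0.14, SE, limma adjusted p = 1.21e-06). OLEO1 (AT4G25140), which coats oil bodies, was at 5.48, 5.48 and 5.60 in cnu1 and at 7.19, 7.87 and 7.71 in PMEIox (log2 -2.07 ± 0.15, SE, limma adjusted p = 8.29e-06). TIP3;1 (AT1G73190), a seed vacuole aquaporin gene, fell by 1.92 and M10 (AT2G41280), a late embryo gene, by 1.66 (limma adjusted p = 7.27e-05 and 4.30e-05). The regulators of embryo maturation ABI3 (0.17), FUS3 (0.24), LEC1 (0.03), LEC2 (-0.15), ABI4 (-0.22) and ABI5 (0.14) were not called (limma adjusted p from 0.415 to 0.945). Without the lowest 40% of loci, 11 of the 22 genes were tested and 8 were called.

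Of 17 genes of seed oil breakdown 0 rose and 6 fell, with a median of -0.25, where 2.90% of all loci fell. MLS (AT5G03860), malate synthase of the glyoxylate cycle, was at 7.39, 7.53 and 7.61 in cnu1 and at 9.57, 9.54 and 9.83 in PMEIox (log2 -2.14 ± 0.17, SE, limma adjusted p = 1.45e-05). ICL (AT3G21720), isocitrate lyase of the same cycle, was at 10.59, 10.54 and 10.48 in cnu1 and at 11.61, 11.81 and 12.13 in PMEIox (log2 -1.31 ± 0.20, SE, limma adjusted p = 0.00195). These 2 genes had the largest differences, and the β-oxidation genes MFP2 and ACX3 fell by 0.47 and 0.39 (limma adjusted p = 0.00517 and 0.0181). ACX3 lost its call without cnu1 B, cnu1 C, PMEIox A or PMEIox B, and without cnu1 B or PMEIox A 3 members of the list were called. Against PMEIox, cnu2 had 10 falls among the 13 storage genes with a median of -2.08, beside the 10 falls and median of -2.38 of cnu1.

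**Figure D3:**
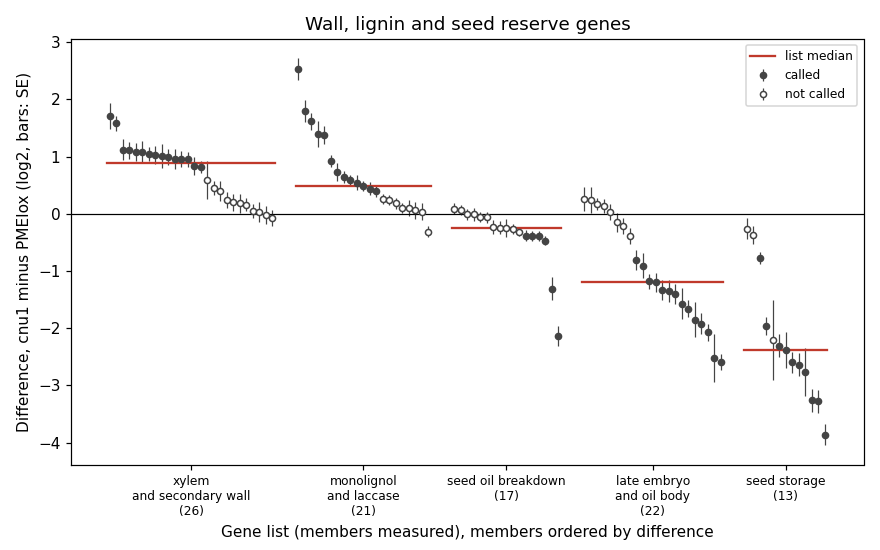
Differences of cnu1 minus PMEIox (vertical axis, log2, bars are SE) for each member of 5 lists (horizontal axis), filled where called and open where not, with the list median as a line. All called members of the xylem and lignin lists lie above 0 and all called members of the 3 seed lists below 0, with medians of 0.89, 0.49, -0.25, -1.19 and -2.38.

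Values of PMEIox against Col-0 stand beside these lists, with the PMEIox arrays shared between the comparisons. In PMEIox 2.79% of all loci were higher than in Col-0 and 2.46% lower. Brassinosteroid synthesis genes had 0 rises and 4 falls in PMEIox with a median of -0.36, sulfur shortage genes 0 and 4 with a median of -0.32, and xylem genes 0 and 12 with a median of -0.58. Monolignol and laccase genes had 0 and 13 with a median of -0.48. Seed storage genes had 11 rises and 0 falls with a median of 2.25, and late embryo genes 12 and 1 with a median of 0.86. The XTH genes described below had 7 and 0 with a median of 0.31. Between cnu1 and Col-0, 0 xylem genes and 0 lignin genes were called, with medians of 0.23 and 0.01, where 0.622% of all loci were called.

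Among the 12 largest rises was CYP705A5 (AT5G47990), which encodes an enzyme acting on the triterpene thalianol, at 7.38, 7.0 and 7.56 in cnu1 and at 4.19, 4.12 and 3.95 in PMEIox. It rose 9.37-fold (log2 3.23 ± 0.24, SE, limma adjusted p = 8e-06), with means of 7.31 in cnu1 and 7.3 in Col-0. Its neighbours in the gene table, CYP708A2 (AT5G48000) and the thalianol synthase gene THAS1 (AT5G48010), rose by 1.99 and 0.87 (limma adjusted p = 4.15e-05 and 0.0255). THAS1 lost its call without cnu1 A, cnu1 C, PMEIox A or PMEIox C. The other 8 measured genes of thalianol, marneral and arabidiol synthesis were not called, and the median of the 11 was 0.16. AT2G16005 had the largest rise, at 8.07, 8.0 and 8.31 in cnu1 and at 4.32, 4.89 and 5.25 in PMEIox, 9.91-fold (log2 3.31 ± 0.26, SE, limma adjusted p = 1.17e-05). It stood at 5.11 in cnu2 and 7.26 in Col-0. AT4G11320, a cysteine protease gene, was at 11.71, 11.97 and 11.89 in cnu1 and at 8.80, 9.04 and 9.24 in PMEIox (log2 2.83 ± 0.13, SE, limma adjusted p = 8.27e-07). Its Col-0 mean was 11.91, beside 11.86 in cnu1.

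The remaining large rises ran from 2.37 to 3.13 and held, besides BGLU28 and LAC2, AT5G57785, AT1G55240, AT4G17470, AT4G11190, AT1G72140, AT3G53250, which is SAUR57, a small auxin-upregulated gene, and AT4G10860. The last 2 were near background in PMEIox, so their differences of 2.45 and 2.42 are lower bounds. AT4G10860 was at 5.17, 4.58 and 5.59 in cnu1 and at 2.30, 3.07 and 2.70 in PMEIox, with means of 4.15 in cnu2 and 3.38 in Col-0. It was above Col-0, near background as well, by at least 1.73 ± 0.27 (SE, limma adjusted p = 0.018), a call that ended without cnu1 A, cnu1 C, Col-0 A or Col-0 B.

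EARLI1 (AT4G12480), a lipid transfer protein gene, had the largest fall, at 2.85, 2.15 and 3.72 in cnu1 and at 7.72, 7.40 and 7.39 in PMEIox (log2 -4.60 ± 0.37, SE, limma adjusted p = 1.57e-05). It was near background in cnu1, so the difference is a lower bound, and also in Col-0, with a mean of 3.23. Its neighbour AZI1 (AT4G12470) fell by 0.89 ± 0.16 (SE, limma adjusted p = 0.0043), and the other 6 genes of this group were not called. EB1A (AT3G47690), which encodes a protein of growing microtubule ends, was at 6.53, 6.64 and 6.71 in cnu1 and at 10.09, 9.51 and 10.17 in PMEIox (log2 -3.3 ± 0.16, SE, limma adjusted p = 8.27e-07). Its paralogs EB1B and EB1C were not called, at 0.11 and 0.37 (limma adjusted p = 0.703 and 0.0772), though 1 of the paralogs was called higher with trend and robust settings or without the lowest 40% of loci. CLE6 (AT2G31085), a signalling peptide gene, was at 4.11, 3.82 and 3.80 in cnu1 and at 6.97, 7.16 and 6.81 in PMEIox (log2 -3.07 ± 0.16, SE, limma adjusted p = 1.21e-06). Col-0 means were 6.22 for EB1A and 4.22 for CLE6, beside 6.62 and 3.91 in cnu1.

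LCR67 (AT1G75830), a plant defensin gene, spread widely in cnu1, at 5.98, 3.84 and 4.38, against 7.94, 8.04 and 8.82 in PMEIox. The difference was -3.53 ± 0.53 (log2, SE, limma adjusted p = 0.0015). LCR67 also spread widely in cnu2, at 4.51, 5.29 and 6.48 (SD 0.99, beside 1.11 in cnu1). The rule for the 12 largest rises and 12 largest falls admitted only genes whose groups did not overlap. AT5G42530 was at 5.06, 5.86 and 5.51 in cnu1 and at 9.15, 8.90 and 9.06 in PMEIox, and the auxin-related gene AT4G09530, which is SAUR17, at 6.20, 5.82 and 5.83 in cnu1 and at 8.59, 8.38 and 8.88 in PMEIox. They fell by 3.56 and 2.67 (limma adjusted p = 8.27e-07 and 3.46e-05). AT5G39150, of a group of germin-like genes, and AT1G54870 fell by at least 3.21 and by 2.76 (limma adjusted p = 5.76e-05 and 4.18e-05), and AT5G39150 was near background in cnu1. All 24 genes of the 12 largest rises and 12 largest falls kept their calls in every omission of an array. Against Col-0, where 0.622% of all loci were called, cnu1 was higher for BGLU28 and AT4G10860. The others of the 24 were not called between cnu1 and Col-0.

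**Figure D4:**
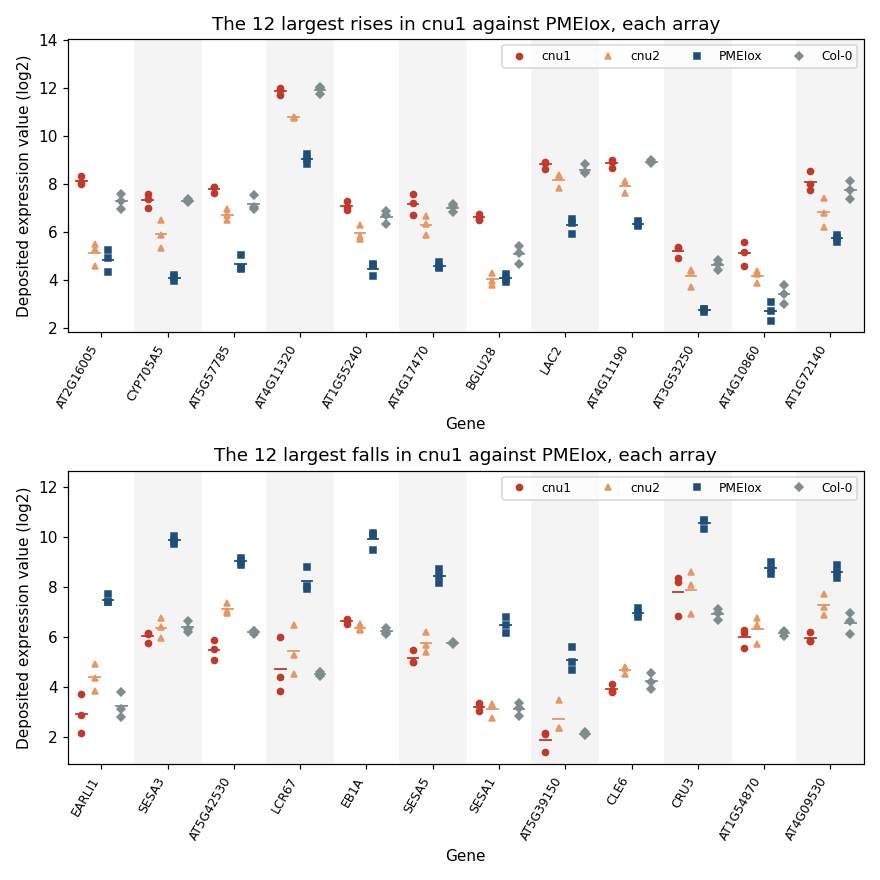
Deposited log2 expression values (vertical axes) of the 12 largest rises (upper panel) and 12 largest falls (lower panel) of cnu1 against PMEIox, with a point for each array of cnu1, cnu2, PMEIox and Col-0 and short lines for group means of 3. For AT2G16005 and BGLU28 the cnu2 means of 5.11 and 4.01 lie close to PMEIox. LCR67 shows a wide spread within cnu1 and within cnu2.

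Genes that modify the primary wall were mostly lower where they were called. The XTH family, whose enzymes cut and rejoin xyloglucan, had 0 rises and 7 falls among 33 members and a median of -0.23. Over all loci 3.54% rose and 2.90% fell. XTH differences ran from -1.39 to 1.46, with 14 members above 0 and 19 below, and the member at 1.46 was not called. XTH31 (AT3G44990) was at 10.28, 10.31 and 10.22 in cnu1 and at 11.25, 11.04 and 11.09 in PMEIox (log2 -0.86 ± 0.10, SE, limma adjusted p = 0.000309). XTH33 (AT1G10550) fell by 0.96 and XTH19 (AT4G30290) by 1.39 (limma adjusted p = 0.000566 and 0.0021). Of 28 expansins, which loosen walls, 0 rose and 4 fell, EXPA12 by 0.88, EXPA9 by 0.62 and EXPA20 by 0.55, while EXPA17 was near background in both groups. Without cnu1 B 1 expansin rose and 1 fell, without PMEIox C 2 fell, and without PMEIox A or PMEIox B 1 fell. With trend and robust settings 2 rose and 5 fell, and 1 rose also without the lowest 40% of loci, in the model of only these genotypes and with the replicate block.

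Pectin genes were called in both directions, where 3.54% of all loci rose and 2.90% fell. Of 36 pectin methylesterases 2 rose and 6 fell, with a median of -0.14, and without PMEIox A 5 were called. The 2 rises among 36 were near the share of all loci. AT5G04970 was at 4.68, 4.70 and 4.70 in cnu1 and at 6.58, 6.77 and 6.33 in PMEIox (log2 -1.87 ± 0.13, SE, limma adjusted p = 5.03e-06). PME12 (AT2G26440) fell by 1.5 and AT2G47550 by 0.77, while PME5 (AT5G47500) rose by 0.75 (limma adjusted p = 6.69e-05, 0.00662 and 0.0095). Of 10 inhibitors of these enzymes 0 rose and 2 fell, AT4G25250 by 0.85 and its neighbour AT4G25260 by 0.47, with 0 or 1 called when any 1 array of either genotype was left out and 4 called lower with array weights. Pectin depolymerases had 1 rise and 3 falls among 22 members and a median of -0.23, but 4 and 7 without the lowest 40% of loci, 1 and 8 with trend and robust settings and 2 and 5 with array weights. The rise was that of AT1G10640, at 6.42, 6.37 and 6.60 in cnu1 and at 4.68, 4.91 and 4.43 in PMEIox (log2 1.79 ± 0.19, SE, limma adjusted p = 0.000107), and the falls those of AT5G63180 by 1.09, PGAZAT (AT2G41850) by 0.71 and AT1G67750 by 0.69. In limma's test 0 of 10 primary wall cellulose genes were called (3 had an unadjusted p below 0.05) and 0 of 10 wall-sensing receptor kinases (0 had an unadjusted p below 0.05). With trend and robust settings 2 cellulose genes were lower, and 1 each with array weights and without the lowest 40% of loci.

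Hormone genes other than those of brassinosteroids moved in both directions, where 3.54% of all loci rose and 2.90% fell. Of 21 gibberellin genes 1 rose and 5 fell (median -0.21). GA2OX8 (AT4G21200), an inactivating oxidase, was at 3.53, 3.77 and 3.51 in cnu1, near background, and at 6.45, 6.03 and 5.66 in PMEIox (a fall of at least 2.45 ± 0.19, SE, limma adjusted p = 1.08e-05). GA20OX2 (AT5G51810), a synthesis gene, fell by 1.23, and of the gibberellin-regulated peptide genes GASA14 fell by 0.76 and GASA6 rose by 1.28 (limma adjusted p = 0.00323, 0.000607 and 0.000844). Of 19 ethylene genes 2 rose and 4 fell. The synthesis gene ACS4 (AT2G22810) fell by at least 1.75 to near background and ACS8 (AT4G37770) by 1.03, while ACS11 (AT4G08040) rose by 1.24 (limma adjusted p = 1.57e-05, 0.000354 and 0.00123).

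Auxin genes gave 3 rises and 2 falls among 25, where 3.54% of all loci rose and 2.90% fell. IAA29 (AT4G32280), a repressor gene of auxin response, was at 7.45, 7.38 and 7.62 in cnu1 and at 6.06, 5.66 and 6.04 in PMEIox (log2 1.56 ± 0.13, SE, limma adjusted p = 2.38e-05). LBD29 rose by 1.14 and GH3.1 fell by 0.84 (limma adjusted p = 0.00477 and 0.00251), and IAA16 at 0.31 lost its call in all 6 omissions. Without cnu1 B, cnu1 C, PMEIox A or PMEIox C 3 auxin genes were called, as in the model of only these genotypes, while 6 rose and 2 fell without the lowest 40% of loci and 7 rose and 2 fell with trend and robust settings. Of 23 jasmonate genes 6 rose and 1 fell, and the rise of JR1 (AT3G16470), a lectin gene, held in every omission of an array. JR1 was at 8.78, 8.72 and 8.97 in cnu1 and at 6.72, 6.86 and 6.98 in PMEIox (log2 1.97 ± 0.12, SE, limma adjusted p = 2.58e-06). With any 1 array left out 1 or 2 jasmonate genes were called. VSP2, AOS and JAZ10 had adjusted p up to 0.110, 0.108 and 0.130, the calls of VSP2 and JAZ10 ending in all 6 omissions and that of AOS in 5, all but that of PMEIox C.

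Called members of other lists follow, where 3.54% of all loci rose and 2.90% fell, 6.44% in all. Flavonoid genes gave 2 rises among 15, TT5 by 0.95 and TT4 by 0.70. Defence genes gave 2 rises, SID2 by 0.78 and RBOHD by 0.52, and 2 falls, LCR67 and PGIP2 by 0.80, among 18, and RBOHD lost its call without cnu1 C (adjusted p = 0.0502). Single members were called among 10 root genes (GL2, -0.53), 10 heat shock genes (HSP17.4, -0.73), 13 clock genes (ELF4, 0.87), 13 low oxygen genes (PCO1, -0.58) and 10 cell division genes (AUR1, 0.52), and 2 each among 16 cuticle genes (LTP2, -0.46, and CER1, -0.57) and 29 photosynthesis and light genes (PIF3, -0.36, and ELIP2, 0.73). Of these, PCO1 lost its call without cnu1 A, cnu1 B, PMEIox A or PMEIox B, AUR1 in all omissions but that of cnu1 B, ELIP2 in all but that of cnu1 C, and CER1 and PIF3 in all 6. Some of these counts were larger under other settings. Both with trend and robust settings and without the lowest 40% of loci, 1 photosynthesis and light gene rose and 3 fell, 2 cell division genes rose and 1 fell, and 2 low oxygen genes fell, and 1 clock gene fell beside the rise of ELF4 with trend and robust settings, array weights or the replicate block, or without PMEIox A. Without cnu1 A 2 heat shock genes fell.

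In limma's test 0 members were called among 23 root hair genes, 14 cold and dehydration genes, 14 pollen and anther genes and 10 reference genes. An unadjusted p below 0.05 was found for 2 root hair, 5 cold, 0 pollen and anther and 1 reference genes. With trend and robust settings and without the lowest 40% of loci 1 root hair gene was higher. Of the cold genes 2 were lower without the lowest 40% of loci and 1 with trend and robust settings, array weights or the replicate block, and 1 reference gene was lower under the first 3 of these settings, and 0 pollen and anther genes were called under any setting. The mean level of the root hair list ran from 3.92 to 3.97 over the cnu1 arrays and from 3.84 to 4.42 over the PMEIox arrays, and that of the reference genes from 8.48 to 8.56 and from 8.50 to 8.55. The bar plot of all lists shows the share of called members in each direction beside the share over all loci.

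**Figure D5:**
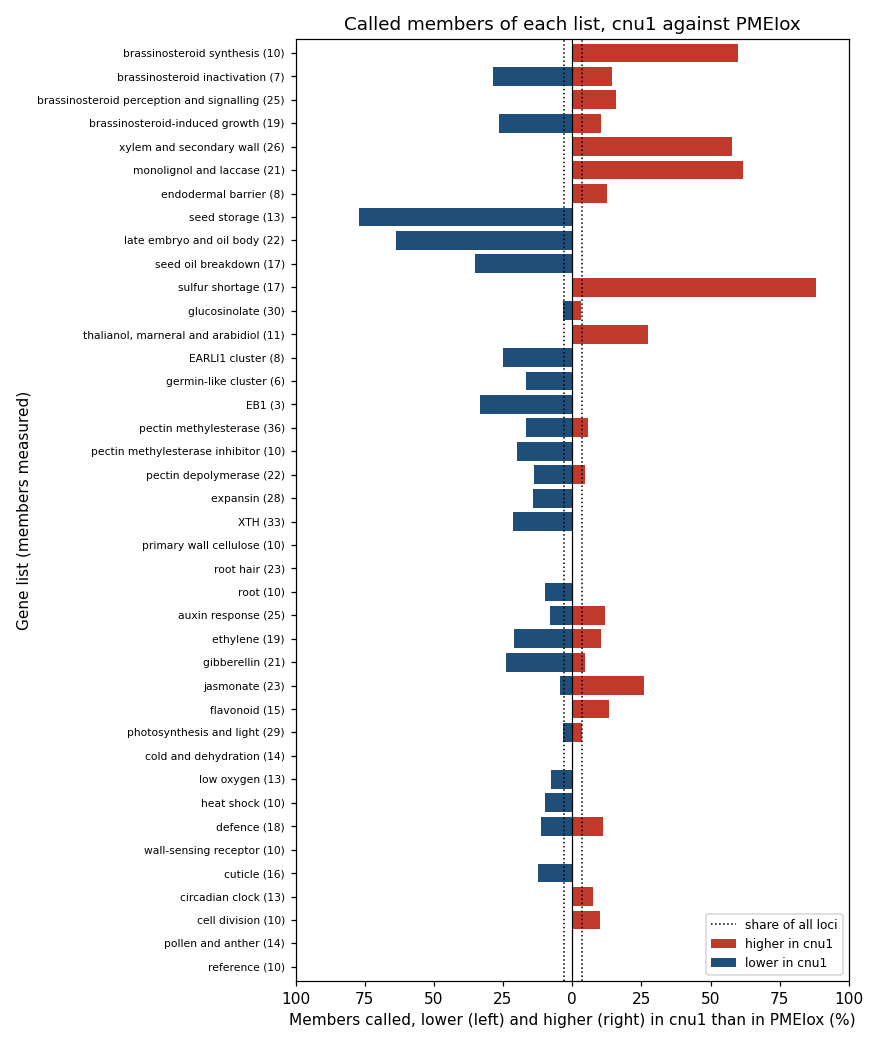
Share of the measured members of each of the 40 gene lists (vertical axis, members in parentheses) called lower (left) or higher (right) in cnu1 than in PMEIox (horizontal axis, percent), with dotted lines at the shares over all loci, 2.90% and 3.54%. Sulfur shortage, lignin, brassinosteroid synthesis and xylem genes reach farthest to the right and seed storage and late embryo genes farthest to the left.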

How the data were processed

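Biotinylated cRNA was hybridised to Affymetrix arrays, per the labels. The deposited table holds 1 log2 value per locus and array, with the log base taken from the range of the values. The authors had given all 12 arrays the same distribution, since their sorted values were identical. Array type, background correction, probe summary and software are not given in the sources used here. Symbols and neighbours came from a RefSeq gene table (assembly TAIR10.1), which matched 27241 loci and left 586 unmatched. The table carries no sequences, so none are shown.

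Genotypes were compared with limma 3.58.1 (R 4.3.3) on the group means of all 12 arrays, giving 8 residual degrees of freedom and 4.06 from the prior. A locus was called at a two-sided p under 0.05 after Benjamini-Hochberg adjustment over 27827 loci. The procedure was tested on simulated data. The 40 lists held 678 entries, of which 675 were measured. Members and lists were chosen with earlier results of these data known. Genes were named by rule: RLP44, BRI1 and PMEI5, the 12 loci that rose most and the 12 that fell most among called loci without overlap, and per list up to 4 called members of smallest adjusted p. Others are said to be named after their values were seen.

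Alternatives were leaving out the lowest 40% of loci, repeated quantile normalization, centring on 10 reference genes, a block for the replicate letter, array weights, a minimum fold of 2, omission of each array, a model of only the genotypes compared, and eBayes with its trend and robust options (statmod 1.5.0). Letters paired no samples, since deviations of same-lettered cnu1 and PMEIox arrays correlated at 0.03, -0.03 and -0.1. Nothing in the labels says whether a letter marks the same week in each genotype. Python 3.11.15 and matplotlib 3.10.9 made the figures.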

Additional observations from a re-analysis of the deposited data

Results flagged for a closer look

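The rule compared the effects of the 2 suppressor mutations under the same contrast with PMEIox, which is tested directly by cnu1 against cnu2, where 0.568% of all loci were called. Of the genes named by rule, 22 differed, and the values here are log2 differences of cnu1 minus cnu2. Higher in cnu1 were AT2G16005 by 3.01, BGLU28 by 2.59, CYP708A2 by 1.42, CYP705A5 by 1.41, THAS1, near background in cnu2, by at least 1.29, AT1G55240 by 1.15, AT4G11320 by 1.1, AT5G57785 by 1.07, AT3G53250 by 1.05, AT4G11190 by 0.94, ACS11 by 0.92, APR1 by 0.85, DWF4 by 0.74, SID2 by 0.71, IAA29 by 0.7 and SULTR1;2 by 0.61. Lower in cnu1 were AT5G42530 at -1.65, GA2OX8 at -1.5, a lower bound on the size since it was near background in cnu1, AT4G09530 at -1.32, AZI1 at -0.99, ACS8 at -0.87 and AT5G04970 at -0.68.

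The calls of AT2G16005, BGLU28, CYP708A2, AT4G11320, AT4G11190, AT5G42530, GA2OX8 and ACS8 held in all 6 omissions of an array (adjusted p up to 0.0499). The calls of DWF4, SULTR1;2, AT5G04970 and IAA29 ended in all 6 (adjusted p up to 0.16). Those of AT5G57785, AT1G55240 and AT4G09530 ended in every omission but that of cnu2 B, of APR1 in every one but that of cnu2 A, of ACS11 in every one but that of cnu2 C and of SID2 in every one but that of cnu1 B. CYP705A5 lost its call without cnu1 A, cnu1 C or cnu2 A, THAS1 without cnu1 A, cnu1 C or cnu2 C, AZI1 without cnu1 A, cnu1 B, cnu2 A or cnu2 B, and AT3G53250 without cnu1 B, cnu1 C, cnu2 B or cnu2 C. AZI1 stood at 10.43 in cnu2 and 10.33 in PMEIox, against 9.44 in cnu1, and the cause of none of these differences was tested.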

How the results depend on the processing

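Of 110 called genes named by rule, 88 kept their calls in every omission of an array and 0 reversed under any setting. A minimum fold of 2 ended 47 of these calls, the model of only the compared genotypes 7, centring on the reference genes 7 and the replicate block 1, and 13 genes were not tested without the lowest 40% of loci. LSU4, which was not called (-0.06), ran from -0.25 to 0.11 with 1 array left out. For cnu1 against PMEIox, 389 loci were called with a minimum fold of 2, and 1061 to 1373 with 1 array left out, beside 1792. For cnu1 against cnu2, with 158 called, trend and robust settings gave 267, a minimum fold of 2 gave 59, the model of only these genotypes 89 and omissions of an array 66 to 84. For cnu1 against Col-0, with 173 called, leaving out the lowest 40% of loci gave 439, trend and robust settings 631, a minimum fold of 2 gave 56, the model of only these genotypes 55 and omissions 45 to 175. The replicate block gave 1871, 172 and 179 loci in these comparisons. Whether a letter marks the same week in each genotype is not given in the labels. Apart from the alternatives built on fewer loci, fewer samples or a larger fold, the cause of these changes was not tested. Repeated quantile normalization left the 3 counts as they were, and no setting moved the median of all loci by 0.1. The values carry no detection calls, so signal over background limits what can be said of loci below 3.87, 29% of the table, and 227 called loci were near background in at least 1 of the 2 genotypes.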

Other observations

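Some gene families outside the lists, collected by symbol from the gene table after values were seen, held called members between cnu1 and PMEIox, where 3.54% of all loci rose and 2.90% fell. Of 13 families counted, cytochrome P450 genes had 17 rises and 13 falls among 234 and WRKY factors 7 and 5 among 72. UDP-glycosyltransferases had 2 and 4 among 64, glutathione transferases 3 and 2 among 42 and aquaporins 1 and 2 among 39. Arabinogalactan proteins had 2 and 1 among 31 and histones 0 and 0 among 19. Genes with an RPL or RPS symbol had 1 and 3 among 49, and such symbols do not all stand for ribosomal proteins. The laccase and sulfate transporter families, which share members with the lists above, had 8 and 0 among 17 and 4 and 2 among 12. The called LAC1, LAC6, LAC7 and LAC10 were outside those lists. So were both falls among the sulfate transporters, AST56 (AT1G77990) at -0.52 and SULTR3;2 at -0.66.

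Of 44 UMAMIT genes, transporters of amino acids and related compounds, 8 rose and 2 fell, with a median of 0.12. UMAMIT35 (AT1G60050) was at 7.30, 7.72 and 7.82 in cnu1 and at 5.61, 5.77 and 5.31 in PMEIox, a rise of 2.05 (limma adjusted p = 0.000162). It was also above cnu2 by 1.81 ± 0.23 and above Col-0 by 2.55 ± 0.23 (SE, limma adjusted p = 0.00437 and 0.000798), in every omission of an array. WAT1 (AT1G75500), which exports auxin from the vacuole and is known for its role in secondary walls, rose by 1.13 (limma adjusted p = 7.01e-05). The 2 falls, UMAMIT44 and UMAMIT34, and the rise of UMAMIT10 each lost their calls in 3 or 4 omissions of an array, UMAMIT44 without cnu1 B, cnu1 C, PMEIox A or PMEIox B, UMAMIT34 without cnu1 A, cnu1 B, PMEIox A or PMEIox B and UMAMIT10 without cnu1 C, PMEIox B or PMEIox C.

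Of 80 SAUR genes, small auxin-upregulated RNAs, 5 rose and 9 fell, with a median of -0.04. SAUR9 (AT4G36110) was at 5.89, 5.89 and 6.38 in cnu1 and at 7.83, 8.0 and 7.93 in PMEIox (log2 -1.87, limma adjusted p = 3.06e-05). AT2G37030 was at 4.89, 5.09 and 4.93 in cnu1 and at 3.32, 3.4 and 3.71 in PMEIox (near background in PMEIox, a rise of at least 1.49, limma adjusted p = 1.55e-05). The groups did not overlap in either gene. Of 30 CLE peptide genes 1 rose and 4 fell, and CLE5 (AT2G31083), the neighbour of CLE6 in the gene table, was at 3.76, 3.77 and 3.66 in cnu1 and at 5.72, 5.96 and 6.05 in PMEIox (near background in cnu1, a fall of at least 2.18 on the log2 scale, limma adjusted p = 1.77e-05). CLE44 (AT4G13195), a peptide gene of the group that keeps vascular stem cells from becoming xylem, fell by 1.01 (limma adjusted p = 0.000221), and CLE41 of the same group fell by 0.71, a call that ended without cnu1 C or PMEIox A (adjusted p up to 0.0592).

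Some low oxygen genes differed between the mutants. ADH1 (AT1G77120), alcohol dehydrogenase, was lower in cnu1 than in cnu2 by 1.46 ± 0.19 and HB1 (AT2G16060), a plant haemoglobin, by 1.06 ± 0.15 (SE, limma adjusted p = 0.00597 and 0.00744), both in every omission of an array. PDC1 (AT4G33070), pyruvate decarboxylase, was lower by 1.49 ± 0.25 (SE, limma adjusted p = 0.0203), a call that ended without cnu1 A, cnu1 B or cnu2 B. Against PMEIox, cnu1 had 0 rises and 1 fall among the 13 genes, where 6.44% of all loci were called, and cnu2 4 rises and 0 falls, where 3.25% were called, and these comparisons share the PMEIox arrays. The cause was not tested.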
